A study of Mus musculus with 17 samples.

Results

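Interferon-stimulated genes are the antiviral and antigen-processing genes that cells switch on in response to interferons. A list of 33 such genes was followed in epididymal fat (white adipose tissue that lies next to the testis) of mice fed a high-fat diet of low or high glycemic index. The genes were chosen by name from the known family. Of the 33, 32 had a probe on the array and 31 could be tested, out of 18134 genes tested in all. A gene was tested where the red (Cy5) signal of a probe was well above background on at least 8 of the 17 arrays, and its brightest such probe stood for it. Oas3, an oligoadenylate synthetase, was too dim, with its best probe above background on 4 arrays. Xaf1, an inhibitor of an apoptosis inhibitor, was not analysed here.

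Type I interferons bind the receptor made of Ifnar1 and Ifnar2 and, through the kinases Jak1 and Tyk2, activate Stat2. Stat2 joins Irf9 in a complex that binds the interferon-stimulated response element (ISRE) in the promoters of its target genes. Interferon gamma acts through Ifngr1 on another element, the GAS. In fat, interferon-stimulated genes can be expressed by adipocytes, endothelial cells and immune cells alike.

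All animals were adult male C57BL/6J mice fed a purified high-fat diet, with 30% of its energy as fat, for 13 weeks. The carbohydrate of that diet had a low glycemic index (LGI, 8 mice: replicates 1, 2, 4, 5, 6, 7, 8 and 9) or a high one (HGI, 9 mice: replicates 1, 2, 3, 4, 5, 6, 7, 9 and 10), so that both groups shared the strain, the sex and the fat content of the diet. A food of high glycemic index raises blood glucose faster than one of low index. RNA of each mouse, labelled with Cy5, was hybridized to an Agilent array of its own against 1 pool of all samples labelled with Cy3. Samples are labelled only as numbered replicates of a diet, and p-values therefore reflect only how far these samples spread. A level below is the log2 ratio of a mouse to that pool, and a difference is the mean of HGI minus the mean of LGI on that log2 scale. The arrays carry whole tissue, so fewer cells of a type and less RNA per cell cannot be told apart.

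The share of gene spots well above background in Cy5 was 54.2% to 66.7%, depending on the array. The arrays HGI 9 and HGI 10 stood apart from the others. The mean log2 ratio of 4 seminal vesicle secretion genes was 1.05 in HGI 9 and 1.14 in HGI 10, and lay between -4.04 and -3.65 in the other 15 mice. The means of the endothelial markers (-0.30 and -0.25) and the fibroblast markers (-0.47 and -0.49) were lower in that pair than in any other mouse, where the lowest were 0.057 and -0.25. The adipocyte markers (-0.34 and -0.30) were low there too, but also in LGI 2 (-0.32) and LGI 9 (-0.23). Results are therefore given with and without HGI 9 and HGI 10.

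The members of the family are dim on these arrays. The median over the 31 genes of the ratio of Cy5 signal to local background was 4.17, against 2.28 for the 314 negative control spots. Bst2 (24.6 times the local background), Irf1 (23) and Psmb8 (20.2) were the brightest, and 8 genes exceeded 10 times. Mx1 (2.65) and Oasl1 (2.71) were the dimmest, and both were above background on 8 of the 17 arrays. In all, 25 of the 31 genes were above background on every array.

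Promoter windows of the members were searched for letters that match the ISRE. RefSeq windows (GRCm38.p6) from 250 bases before to 50 after the start of transcription were searched on both strands for the ISRE core GAAANNGAAA, where overlapping matches were counted separately. Windows of 27 members were found, and 13 of these (48.1%) held the pattern, against 3.99% of the 27025 genes with a window. The members with a match were Ifit1, Ifit3, Isg15, Oas1a, Oas3, Rsad2, Bst2, Ddx58, Ifih1, Eif2ak2, Stat2, Gbp2 and Gbp3. The GAS pattern TTCNNNGAA was held by 8 of the 27 members (29.6%), against 9.55% of genes. A match is a run of letters and not a measured binding site. The 250 bases upstream of the start are printed below for 6 genes, read 5′ to 3′ on the strand of the gene, with each ISRE match in capitals. They were chosen after their values were seen: the ratios of the first 5 correlated with the mean of the other members at 0.62 (Ifit1) to 0.87 (Oas1a) across the mice, and Bst2 is 1 of the 3 genes at an unadjusted p of 0.05 between the diets.
Ifit1, chr19:34640639-34640888, plus strand: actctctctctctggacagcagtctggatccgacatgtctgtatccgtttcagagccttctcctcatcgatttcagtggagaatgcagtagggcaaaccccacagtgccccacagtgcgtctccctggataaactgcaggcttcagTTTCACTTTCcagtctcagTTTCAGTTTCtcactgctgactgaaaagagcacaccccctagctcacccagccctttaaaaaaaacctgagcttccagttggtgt
Ifit3, chr19:34583279-34583528, plus strand: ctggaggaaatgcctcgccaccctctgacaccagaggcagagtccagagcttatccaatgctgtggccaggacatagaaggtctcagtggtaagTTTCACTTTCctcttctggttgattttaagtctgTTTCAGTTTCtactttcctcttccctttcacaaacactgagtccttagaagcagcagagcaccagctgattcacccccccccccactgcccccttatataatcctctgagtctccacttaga
Isg15, chr4:156200819-156201068, minus strand: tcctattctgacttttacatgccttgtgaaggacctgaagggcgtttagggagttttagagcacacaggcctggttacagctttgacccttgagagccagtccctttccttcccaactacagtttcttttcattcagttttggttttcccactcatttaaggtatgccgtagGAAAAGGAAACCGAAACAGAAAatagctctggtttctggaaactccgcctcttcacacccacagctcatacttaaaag
Oas1a, chr5:120907526-120907775, minus strand: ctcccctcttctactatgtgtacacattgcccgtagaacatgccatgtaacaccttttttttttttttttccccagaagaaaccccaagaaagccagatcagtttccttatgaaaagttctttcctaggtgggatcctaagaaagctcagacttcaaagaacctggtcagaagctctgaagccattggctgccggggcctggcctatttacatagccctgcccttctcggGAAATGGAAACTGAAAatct
Rsad2, chr12:26456453-26456702, minus strand: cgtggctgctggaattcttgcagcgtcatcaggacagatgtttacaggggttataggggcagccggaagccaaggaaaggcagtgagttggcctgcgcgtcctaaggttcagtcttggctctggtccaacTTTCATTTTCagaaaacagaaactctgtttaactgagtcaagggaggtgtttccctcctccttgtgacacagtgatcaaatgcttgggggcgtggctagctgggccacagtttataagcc
Bst2, chr8:71537473-71537722, minus strand: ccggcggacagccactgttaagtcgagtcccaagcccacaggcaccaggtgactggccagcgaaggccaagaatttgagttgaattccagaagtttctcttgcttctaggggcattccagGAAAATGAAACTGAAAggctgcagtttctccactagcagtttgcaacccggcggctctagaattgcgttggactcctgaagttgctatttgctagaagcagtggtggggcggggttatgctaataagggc
The first match begins 104 bases upstream of the start in Ifit1, 156 in Ifit3, 78 in Isg15, 20 in Oas1a, 120 in Rsad2 and 130 in Bst2. Isg15 holds 3 overlapping matches, Oas1a and Bst2 hold 2 overlapping ones, and Ifit1 and Ifit3 hold 2 separate ones. Mx1, Mx2, Oas2, Usp18, Dhx58 and Parp14 were not in the promoter table.

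The comparison of the diets asked whether these transcripts differ in the fat depot when the carbohydrate of a high-fat diet has a low or a high glycemic index. With limma, 0 of the 31 genes passed an adjusted p of 0.05, as did 0% of all genes tested. At an unadjusted p of 0.05 in limma, 2 were higher in HGI (Usp18 and Bst2, against 3.96% of all genes) and 1 was lower (Ddx58, against 3.78%). These counts rest on the brightest probe of each gene. With the mean of all tested probes of a gene, Usp18 and Bst2 were again at that p and Ddx58 was not. Of all genes, 4.16% were then higher and 3.62% lower at that p. The sign of the difference was positive for 12 of the 31 genes and negative for 19, where 52.6% of all genes were positive. The median difference was -0.014, against 0.0058 over all genes, and the single values ran from -0.30 to 0.24. The median standard error was 0.09, and the 95% interval of the difference lay inside ±0.5 for 29 genes and inside ±0.3 for 20. Both diet groups overlapped for each of the 31 genes. The share of all genes that overlap is not given here, so that count shows nothing particular to the family.

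Without HGI 9 and HGI 10, 17 of the 31 genes were higher in HGI, where 50.1% of all genes were. The count at an adjusted p of 0.05 was again 0, and at an unadjusted p of 0.05 1 gene was higher (Tap1, where 5.04% of all genes were higher) and 0 were lower (2.75%). The median difference became 0.025.

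**Figure D1:**
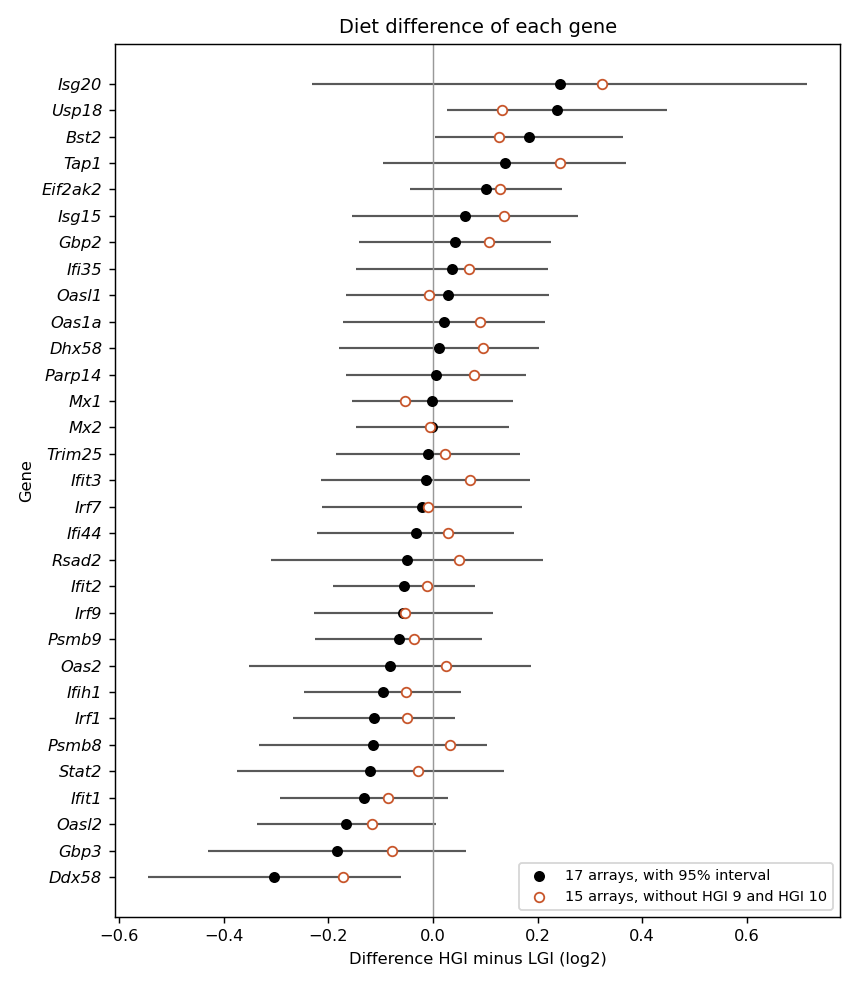
Difference HGI minus LGI on the log2 scale for each of the 31 genes, sorted. Filled points with lines are the values over 17 arrays with their 95% intervals, and open points are the values over the 15 arrays without HGI 9 and HGI 10. The intervals of 28 genes include 0, and those of Usp18, Bst2 and Ddx58 do not.

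The mean of the 31 genes in a mouse gives the level of the family as a whole. In LGI it ran from -0.165 in LGI 9 over a median of -0.015 to 0.12 in LGI 5. In HGI it ran from -0.216 in HGI 9 over a median of 0.013 to 0.114 in HGI 4. The groups overlapped over nearly their whole range. The mean was -0.016 ± 0.085 (SD, n = 8) in LGI and -0.032 ± 0.128 (SD, n = 9) in HGI, a difference of -0.016. It was 0.032 without HGI 9 and HGI 10, the 2 lowest HGI mice. The sign also turned without HGI 9 alone (0.0066), without HGI 10 alone (0.003) or without LGI 5 alone (0.0029). Within the first 8 arrays scanned the difference was -0.011 and within the later 9 it was -0.029. All these values are smaller than the SD between mice of a diet, 0.11.

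**Figure D2:**
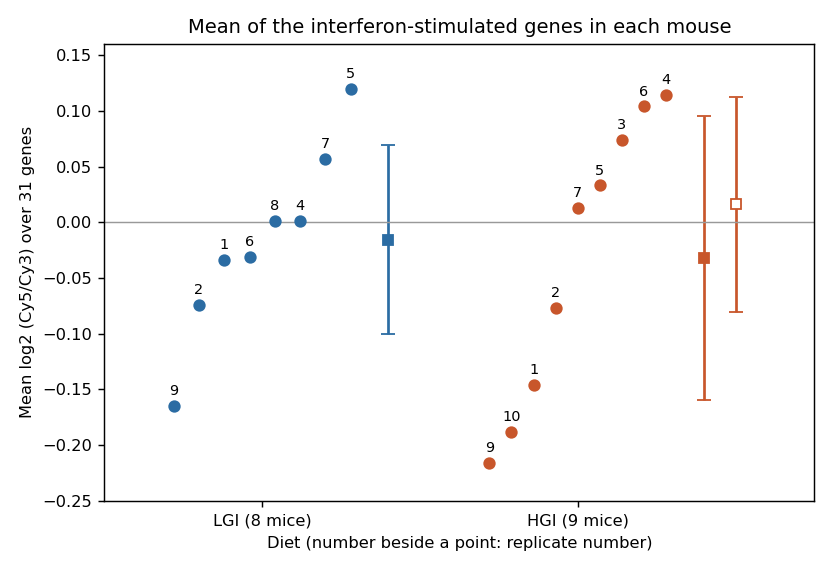
Mean log2 ratio over the 31 genes in each mouse, by diet, with the replicate number beside each point. Filled squares are group means with SD over all mice and the open square is HGI without replicates 9 and 10. The LGI mice lie between -0.165 and 0.12, the HGI mice between -0.216 and 0.114, and the group means differ by -0.016.

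The effectors of the antiviral state, among them the Ifit proteins that bind foreign RNA, the oligoadenylate synthetases (Oas) that activate RNase L, and the Mx GTPases, form the largest group. Of the 13 tested, 5 were higher and 8 lower in HGI, with a median of -0.0014. Bst2, or tetherin, which holds budding virus at the cell surface, ran from -0.29 over a median of -0.14 to 0.17 in LGI. In HGI it ran from -0.23 over 0.0088 to 0.38. All but 1 of the 9 HGI mice lay above the LGI median, with the groups overlapping. The difference was 0.18 ± 0.087 (SE; limma's adjusted p = 0.643) and 0.13 without HGI 9 and HGI 10. HGI 9 was the highest mouse (0.38). Without HGI 9 alone it was 0.145.

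Isg20, an exonuclease that degrades RNA, had the most positive difference, 0.24 ± 0.227 (SE). That value rested on 1 mouse: HGI 3 was at 1.79, and the other 16 mice lay between -0.53 and 0.14. Without HGI 3 the difference was 0.014. The second probe of Isg20, above background on all 17 arrays, read -0.17 in HGI 3 and gave a difference of -0.024, and the 2 probes correlated at -0.17 over the 17 arrays. Each dye was also taken on its own, normalized between arrays and set against its median over the arrays. In HGI 3 the first probe was 0.94 above its median in Cy5 and 1.19 below it in Cy3, the pool that all arrays share.

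Oasl2, a synthetase-like protein, ran from -0.21 over 0.033 to 0.21 in LGI and from -0.42 over -0.19 to 0.23 in HGI. HGI mice lay above the LGI median in 2 of 9 cases, and the highest mouse of all, HGI 4, was an HGI mouse. The difference was -0.17 ± 0.082 (limma's adjusted p = 0.656) and -0.12 without HGI 9 and HGI 10. Ifit1 ran from -0.40 over -0.16 to 0.12 in LGI and from -0.63 over -0.31 to -0.088 in HGI. Only 1 of the 9 HGI mice was above the LGI median, and the difference was -0.13 ± 0.077 (limma's adjusted p = 0.713). Its neighbours on chromosome 19, Ifit2 (-0.056) and Ifit3 (-0.014), had smaller differences by their brightest probes. A second probe of Ifit3, above background on 15 arrays, gave -0.21 ± 0.071, and the 2 Ifit3 probes correlated at 0.28.

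Eif2ak2, the kinase PKR that halts translation upon sensing double-stranded RNA, had a difference of 0.10 ± 0.07 (limma's adjusted p = 0.755). It kept a positive sign in all 35 alternative settings. Ifit1, Oasl2, Bst2, Ddx58, Ifih1, Stat2, Irf9, Irf1 and Gbp3 also kept their signs in all of them. Oas2 was at -0.081 ± 0.129, Rsad2 (viperin) at -0.049 ± 0.125 and Oas1a at 0.021 ± 0.093. Oasl1 (0.028), Mx1 (-0.0014) and Mx2 (-0.0014) were near 0. Mx1 and Oasl1 lay at the edge of detection.

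Isg15, the ubiquitin-like protein that is conjugated to other proteins, and Usp18, the protease that removes it and restrains the type I receptor, form the second group. Usp18 ran from -0.40 over -0.21 to 0.01 in LGI and from -0.34 over -0.0093 to 0.44 in HGI. The 2 highest mice were HGI 10 (0.44) and HGI 9 (0.35), the next was HGI 5 (0.24), and 8 of the 9 HGI mice lay above the LGI median. The difference was 0.24 ± 0.101 (limma's adjusted p = 0.601), and 0.13 without HGI 9 and HGI 10. In the authors' deposited value table, which gives a level per mouse with another normalization, the difference was -0.07. Isg15 ran from -0.48 over -0.15 to 0.28 in LGI and from -0.48 over -0.14 to 0.13 in HGI. Those ranges nearly coincided, and the difference was 0.061 ± 0.104, with the opposite sign in Cy5 alone (-0.028).

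Ddx58 (RIG-I), Ifih1 (MDA5) and Dhx58 (LGP2) are helicases that sense viral RNA in the cytosol, and Trim25 is a ligase that activates RIG-I. Ddx58 ran from -0.29 over 0.12 to 0.32 in LGI and from -0.93 over -0.17 to 0.084 in HGI. None of the 9 HGI mice exceeded the LGI median, while 1 LGI mouse, LGI 7, fell to -0.29. The difference was -0.30 ± 0.116 (limma's adjusted p = 0.563), the most negative of the family. HGI 10 (-0.93) and HGI 9 (-0.42) were the lowest mice, and without both the difference was -0.17 (limma's adjusted p = 0.649).

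Ddx58 has 4 probes on the array, of which 2 were not well above background on any array and are left out here. The other two did not give the same value. The brightest, 5.51 times the local background, gave the difference above. The next, above background on 15 arrays and 3.01 times the background, gave 0.027, and the 2 correlated at 0.45 over the mice. That second probe was also lowest in HGI 10 (-0.43) and HGI 9 (-0.20), and it was highest in HGI 2 (0.36), where the first read -0.17. The mean over tested probes was -0.14 (limma's adjusted p = 0.754). Ifih1 differed by -0.096 ± 0.072, Dhx58 by 0.011 ± 0.092 and Trim25 by -0.0099 ± 0.085. A second probe of Trim25 gave 0.16.

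The transcription factors of the pathway are Stat2 and Irf9, both part of the complex on the ISRE, Irf7, which amplifies the interferon response, and Irf1. All 4 were lower in HGI, with limma's adjusted p between 0.74 and 0.972. The sign of Irf7 was the opposite in 5 of 34 alternatives, among them that without background correction (0.00077), with values up to 0.02. Stat2 ran from -0.35 over 0.047 to 0.15 in LGI and from -0.47 over -0.23 to 0.55 in HGI, so that the HGI range enclosed that of LGI. Its difference was -0.12 ± 0.122. Irf1 was at -0.11 ± 0.074, Irf9 at -0.057 ± 0.082 and Irf7 at -0.021 ± 0.092. Without HGI 9 and HGI 10 the 4 values lay between -0.054 (Irf9) and -0.009 (Irf7).

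Psmb8 and Psmb9 are subunits of the immunoproteasome, and Tap1 is a chain of the transporter that carries peptides to MHC class I. Psmb8 ran from -0.02 over 0.13 to 0.24 in LGI and from -0.59 over 0.15 to 0.27 in HGI. HGI 9 (-0.59) and HGI 10 (-0.43) lay far below all other mice, whose lowest was LGI 2 at -0.02. The difference was -0.11 ± 0.105 with that pair and 0.032 without it. Psmb9 differed by -0.066 ± 0.077. Tap1 ran from -0.43 over -0.25 to 0.15 in LGI and from -0.60 over -0.084 to 0.30 in HGI. Its difference was 0.14 ± 0.112 over all arrays and 0.24 ± 0.097 without HGI 9 and HGI 10 (limma's adjusted p = 0.554). In Cy5 alone the sign was the opposite (-0.05), and Tap1 was above background on 14 arrays.

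Gbp2 and Gbp3 are guanylate-binding proteins, GTPases that attack the vacuoles of intracellular microbes. Gbp3 ran from -0.34 over 0.079 to 0.42 in LGI and from -0.49 over -0.15 to 0.22 in HGI, with 2 of 9 HGI mice above the LGI median. Its difference was -0.18 ± 0.118, against 0.042 ± 0.088 for Gbp2. Without HGI 9 and HGI 10 the differences were -0.079 for Gbp3 and 0.11 for Gbp2. Both genes were lowest in HGI 9. The 3 remaining genes, Ifi35 (0.036), Parp14 (0.0058) and Ifi44 (-0.033), had differences smaller than their standard errors. A second probe of Parp14, an ADP-ribosyltransferase, was above background on all 17 arrays and gave -0.21 ± 0.074, the 2 probes correlating at 0.50.

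**Figure D3:**
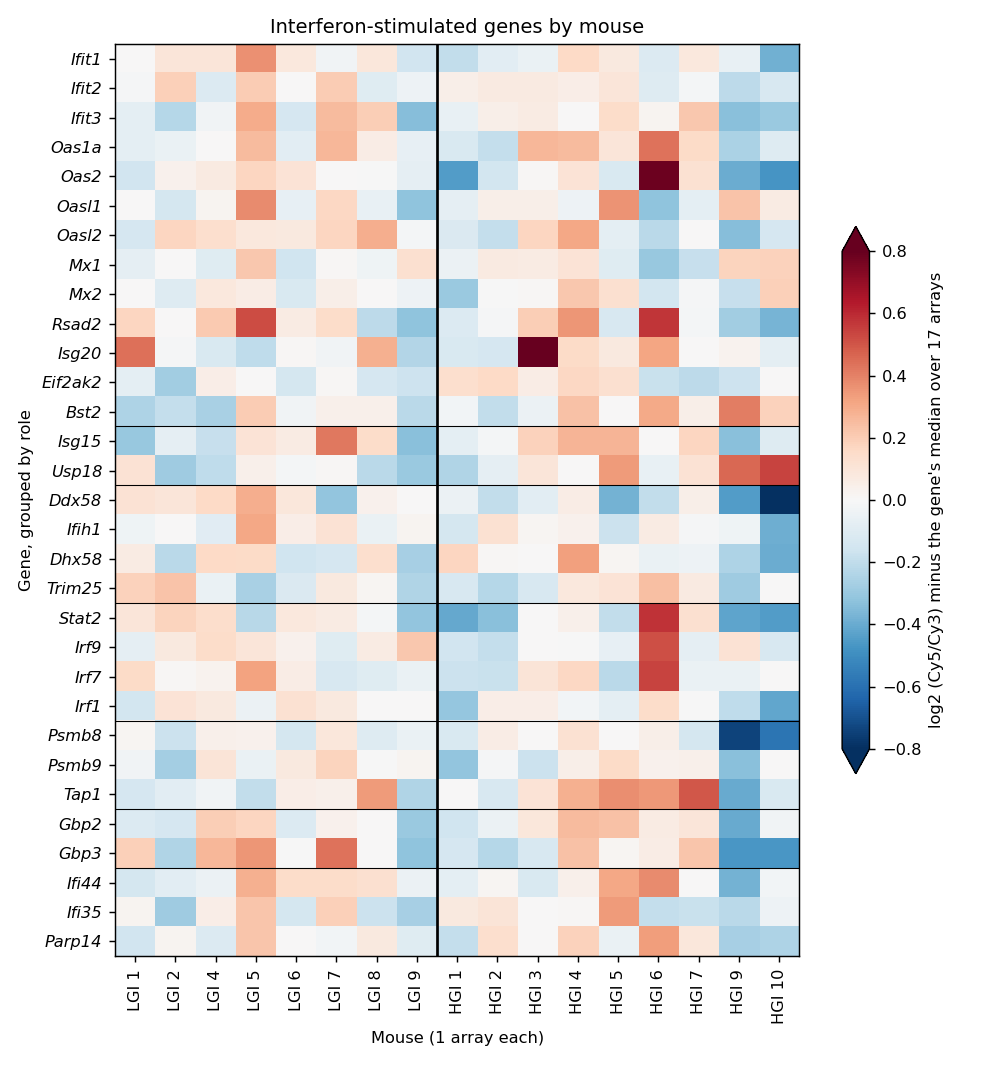
Log2 ratio of each gene in each mouse minus the median of that gene over the 17 arrays. Rows are the 31 genes grouped by role and columns are the mice, with LGI left of the vertical line and HGI right of it; colours saturate at ±0.8. LGI 5 and HGI 4 are red in most rows, HGI 9 and HGI 10 are blue in most rows, and HGI 6 is red in the transcription factors and the Oas genes.

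The mice of each diet differed among themselves. The highest value of a gene fell on HGI 6 in 10 of the 31 genes (32.3%, against 12% of all genes), on LGI 5 in 6 (19.4%, against 5.23%), on HGI 4 in 6 (19.4%, against 8.69%) and on LGI 7 in 4 (12.9%, against 5.41%). LGI 5 was highest for Ifit1, Ifit3, Oasl1, Mx1, Ddx58 and Ifih1. HGI 4 was highest for Oasl2, Mx2, Eif2ak2, Dhx58, Psmb8 and Gbp2. The macrophage marker mean was highest in HGI 4 (0.56), and was 0.036 in LGI 5. LGI 5 had the highest means of the adipocyte markers (0.23) and the endothelial markers (0.30), and the second highest of the 2 tested neutrophil markers (0.58, after HGI 2 at 0.67). Their part in these values was not tested.

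In HGI 6 the family split. Oas2 was 0.78 above the median of the other mice, Stat2 0.59, Rsad2 0.58, Irf7 0.57, Irf9 0.52 and Oas1a 0.46. For Rsad2 only the brightest probe was high there (a level of 0.48), and its 2 further tested probes read -0.009 and 0.083. Ifit1 (-0.15), Oasl2 (-0.26), Mx1 (-0.31) and Oasl1 (-0.33) were below that median, and Isg15 (-0.024) was close to it. Mx1 and Oasl1 lay at the edge of detection. Each was above background on 8 arrays in Cy5, and in Cy3 on 1 (Mx1) and 4 (Oasl1). The marker means of T and NK cells (0.22), plasmacytoid dendritic cells (0.14) and B cells (0.082) were highest in HGI 6, that of B cells by a narrow margin over HGI 7 (0.081). Their part in this was not tested.

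The dyes taken singly show what made up those ratios. In HGI 6, Oas2 was 0.45 above its median in Cy5 and 0.29 below it in Cy3. Stat2 was 0.27 above and 0.32 below, Irf7 0.24 above and 0.26 below, and Rsad2 0.20 above and 0.30 below. Irf9 was 0.14 above its median in Cy5 and 0.35 below it in Cy3. For Stat2, Irf7, Rsad2 and Irf9 the deviation was thus larger in Cy3, the same pooled RNA on every array, than in Cy5. Of the 31 genes, HGI 6 had the highest Cy5 value in 5 (Oas2, Trim25, Stat2, Tap1 and Parp14), where 7.39% of all genes were highest there, and the lowest Cy3 value in 6 (Oas1a, Oas2, Rsad2, Stat2, Irf9 and Irf7), where 11.6% were.

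In LGI 5, by contrast, the mean over the 31 genes was 0.17 above the median in Cy5 and 0.008 in Cy3. LGI 5 had the highest Cy5 value in 8 of the 31 genes (Ifit2, Rsad2, Ddx58, Ifih1, Irf7, Gbp2, Gbp3 and Ifi44), where 6.04% of all genes were highest. Over the 17 arrays the SD in Cy5 exceeded that in Cy3 for 31 of the 31 genes (91.6% of all genes), with medians of 0.207 and 0.0855. Ddx58 had the widest Cy5 spread (0.324, against 0.0469 in Cy3), and in Isg20 the dyes spread alike (0.306 and 0.304).

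**Figure D4:**
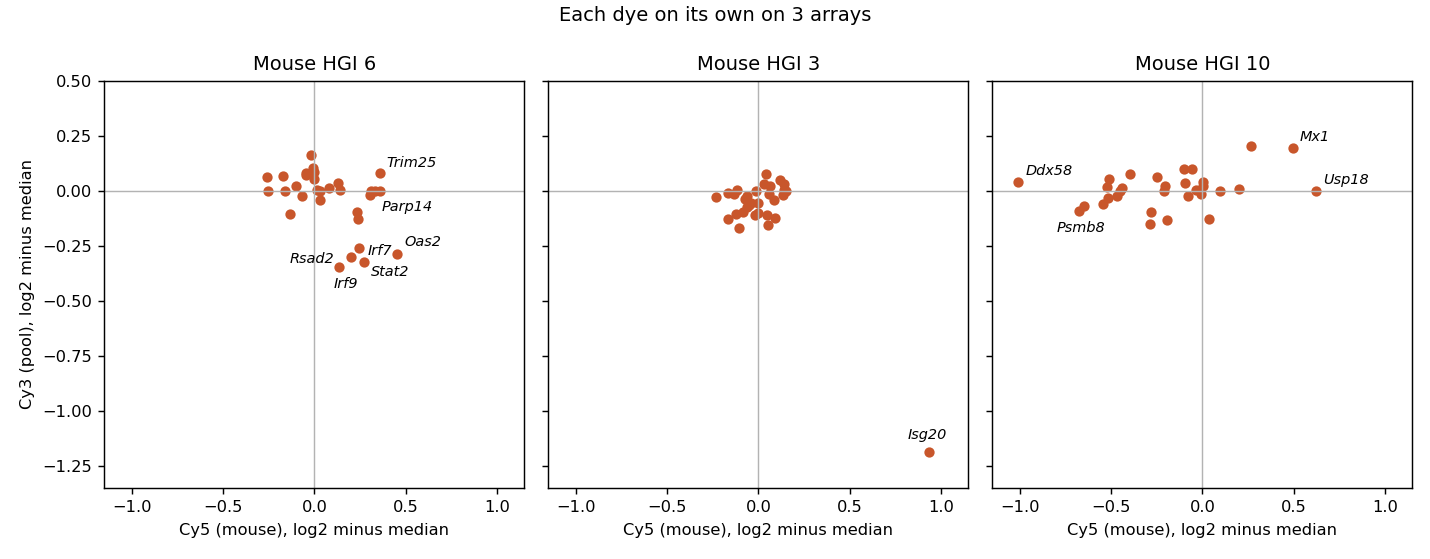
Log2 signal of each of the 31 genes in Cy5 (the mouse, horizontal) and in Cy3 (the pool, vertical) on 3 arrays, each minus its median over the 17 arrays after normalization between arrays. Oas2, Stat2, Irf7, Rsad2 and Irf9 lie low in Cy3 in HGI 6, Isg20 lies at 0.94 and -1.19 in HGI 3, and the spread of HGI 10 runs along Cy5, from Ddx58 at -1.01 to Usp18 at 0.62.

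HGI 9 and HGI 10 were low for most of the family. Of the 31 genes, 26 had a lower mean in that pair than in the other HGI mice, where 53.1% of all genes did, and the median shift was -0.28, against -0.017. The lowest value of a gene fell on HGI 9 or HGI 10 in 19 of the 31, where 20.2% of all genes were lowest. The means of Cy5 alone were -0.28 in HGI 9 and -0.20 in HGI 10, and those of Cy3 were -0.035 and 0.006. The 5 genes with a higher mean in that pair were Usp18, Bst2, Oasl1, Mx1 and Mx2. In Cy5 Usp18 was 0.60 and 0.62 above its median and Bst2 0.43 and 0.20 above. The seminal vesicle genes were high and the endothelial and fibroblast markers low on both arrays, as given above. The mean of the 10 macrophage markers was also lowest there (-0.29 in HGI 9 and -0.13 in HGI 10), though close to the next mouse, LGI 2 (-0.11). The part of these cells in the values was not tested.

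The spread among mice was larger in HGI than in LGI for 24 of the 31 genes (77.4%, against 63.3% of all genes). Without HGI 9 and HGI 10 it was 19 (61.3%, against 51.7%), and without HGI 6 as well it was 15 (48.4%, against 45.4%).

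The genes of the family varied together across the mice, whatever the diet. The mean correlation over the 465 pairs was 0.23, and it was 0.24 within the diets and 0.20 without HGI 9 and HGI 10. Over all genes tested it was 0.0025. Loess centres the ratios of each array and so holds that value near 0, and the contrast with it is no test. Correlations here describe 17 arrays, and all pairs on an array share its hybridization and dyes. Oas2 with Stat2 (0.85), Oas2 with Parp14 (0.85), Eif2ak2 with Ifi35 (0.81) and Ifit3 with Isg15 (0.77) were the closest pairs. The largest correlations with the mean of the other members were those of Oas1a (0.87), Rsad2 (0.80), Gbp2 (0.80), Gbp3 (0.78) and Ifit3 (0.76). The brightest probe of Rsad2, used here, correlated with the further tested probes of that gene at 0.21 and 0.74. Mx1 (-0.36), which lay at the edge of detection, and Usp18 (-0.23) ran against the rest. Without HGI 9 and HGI 10 Usp18 was at 0.52, Bst2 went from 0.058 to 0.69 and Mx1 to -0.086.

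The 12 tested genes with the ISRE pattern in their window had a median correlation with the rest of 0.65, and the 13 with a window but no match had 0.44. Without HGI 9 and HGI 10 those medians were 0.62 and 0.28. The median diet difference was -0.032 with the pattern and -0.033 without it over 17 arrays, and 0.06 and -0.007 without HGI 9 and HGI 10. The ranges overlapped, since Bst2 (0.058) and Eif2ak2 (0.17) have the pattern and Psmb8 (0.71) and Ifi44 (0.63) had no match.

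**Figure D5:**
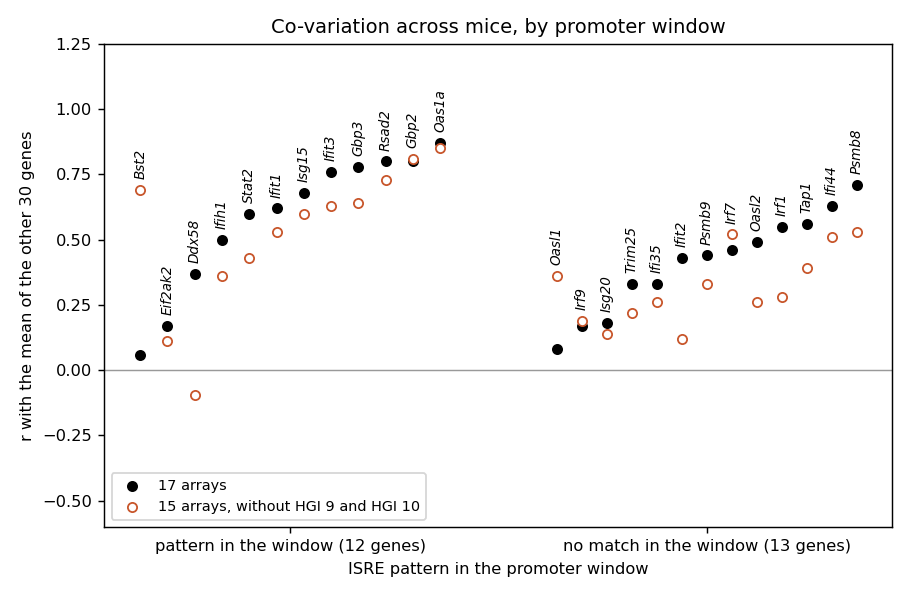
Correlation of each gene with the mean of the other members across mice, for genes with and without an ISRE match in the promoter window. Filled points are 17 arrays and open points the 15 arrays without HGI 9 and HGI 10. The medians over 17 arrays are 0.65 for 12 genes with the pattern and 0.44 for 13 with no match, and Bst2 moves from 0.058 to 0.69.

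The genes upstream of the family were measured as a fixed list of 34 interferons, receptors, kinases and sensors, of which 26 could be tested. With limma, 0 passed an adjusted p of 0.05. At an unadjusted p of 0.05, 0 were higher (against 3.96% of all genes) and 0 were lower (against 3.78%). By sign, 13 were higher and 13 lower in HGI. The receptors were close to 0: Ifnar1 at 0.023 ± 0.064, Ifnar2 at 0.07 ± 0.078 and Ifngr1 at 0.036 ± 0.123. Irf2 (0.13), Irf8 (0.17), a factor of macrophages and dendritic cells, and Ifnlr1 (0.13) had the smallest p among the higher genes. Socs3 (-0.099) and Zbp1 (-0.088) were among the lower genes with the smallest p. Of the interferons in the list only Ifna2, named here after its value was seen, could be tested. It was above background in 7 LGI and 8 HGI mice, with a difference of -0.053 ± 0.074. Ifnb1, Ifng, Ifna4 and Ifnl3 were on the array and too dim to test.

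Of 36 further interferon-stimulated genes, 30 were tested, 9 higher and 21 lower, and with limma 0 passed an adjusted p of 0.05. At an unadjusted p of 0.05, 0 were higher (against 3.96% of all genes) and 1 was lower (against 3.78%). Trim30a, a ligase of the tripartite motif family, was at -0.24 ± 0.11 (limma's adjusted p = 0.64), followed by Ifi203 (-0.14) and Samd9l (-0.12). Without HGI 9 and HGI 10 Trim30a was at -0.11, Ifi203 at -0.12 and Samd9l at -0.12. The 3 positive differences with the smallest p were those of Ifitm1 (0.14), which blocks viral entry, Tdrd7 (0.13) and Lgals9 (0.10). Without HGI 9 and HGI 10 the split was 18 higher and 12 lower.

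Of 26 genes induced by interferon gamma or serving MHC class I, 22 were tested, 7 higher and 15 lower. Without HGI 9 and HGI 10 the split was 12 higher and 10 lower, and the median difference went from -0.044 to 0.02. With limma 0 passed an adjusted p of 0.05. At an unadjusted p of 0.05, 1 was higher (against 3.96% of all genes) and 2 were lower (against 3.78%). Without that pair 1 was higher (against 5.04%) and 1 lower (against 2.75%). Tap2, the partner chain of Tap1, was at -0.21 ± 0.068 (limma's adjusted p = 0.52), the opposite sign of Tap1, and at -0.14 without HGI 9 and HGI 10. Ifi30, a lysosomal thiol reductase, was at 0.28 ± 0.102 (limma's adjusted p = 0.552) and at 0.25 without that pair. Irgm2 was at -0.20 (limma's adjusted p = 0.633) and Gbp7 at -0.19, and without that pair they were at -0.12 and -0.084. B2m, the light chain of MHC class I, was at 0.36 ± 0.198 and at 0.07 without HGI 9 and HGI 10. Psmb10, the third catalytic subunit of the immunoproteasome, was at 0.099, and the chemokine Cxcl10 at -0.061 ± 0.13, which was detected above background in 5 mice of LGI and 6 of HGI.

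The cell types that could carry these transcripts were followed by their markers. Of 10 macrophage markers 9 were higher in HGI, where 52.6% of all genes were, and 9 were without HGI 9 and HGI 10 (50.1% of all genes). Their median was 0.047 over all arrays, with limma's adjusted p at or above 0.52, and 0.13 without that pair. All 4 tested plasmacytoid dendritic cell markers were higher, with a median of 0.09, and 3 of the 4 were without that pair. Of these, Pacsin1 was above background in 3 LGI and 6 HGI mice. Siglech, also in that list, was on the array and too dim to test. Of 9 T and NK cell markers 6 were higher, and of 6 adipocyte markers 4 were lower. Of 5 endothelial markers 4 were lower, and 2 were without HGI 9 and HGI 10. All 4 mesothelial markers were lower with and without that pair, with medians of -0.30 and -0.27. The part of these cells in the differences of the interferon-stimulated genes was not tested.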

How the data were processed

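The authors deposited 1 scanner file per array, which holds spot intensities (mean signal and median local background, per dye) written by Agilent Feature Extraction (9.1.3.1 per the file headers, 9.5.1.1 per the submitters' processing notes). They also deposited log2 values per sample, whose normalization is not given in the sources used here, and which served as an alternative only. Per the design text, 19 arrays were hybridized and 2 excluded by the authors.

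From the intensities, limma 3.58.1 (R 4.3.3, data.table, version 1.17.8) corrected background by normexp (offset 50) and normalized log2 Cy5/Cy3 by loess within arrays, with control and outlier-flagged spots at weight 0. Of 41174 probes, 25515 were well above background in Cy5 on at least 8 arrays and stood for 18134 genes, each by its brightest probe. Gene names came from RefSeq (GRCm38.p6: 23374 by accession, 6733 by symbol, 2919 by an older symbol), and 8148 probes kept the file's name. The diets were compared by limma's lmFit and eBayes over all 17 arrays, adjusted by Benjamini-Hochberg over all genes. The fit was also run on simulated data, with genes drawn independently and shifts larger than any member difference here. That run cannot show the power or error at the differences reported. The module mean is given without a test. Setting Cy5 beside Cy3, each alone (normexp, quantile normalization), was chosen after seeing the data. Members and lists were chosen with earlier results of these data known. Named are all members, the 3 genes with the smallest p in each direction of each pathway list, and Ifnar1, Ifnar2, Ifngr1, Irf8, Cxcl10 and B2m. 1 further gene that the rule names is not reported here. The alternatives, changing background, normalization, filter, probe and arrays, are given in the closing section. The number of arrays limits the precision. Python 3.11.15 with matplotlib 3.10.9 and pandas 2.3.3 drew the plots and read the promoters.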

Additional observations from a re-analysis of the deposited data

Results flagged for a closer look

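In 5 of the 64 checks of the highest and lowest mouse of a diet, 1 mouse lay far from the other mice of its group. The critical value used is one that chance passes in about 1 in 20 groups. The checks are not independent, since the genes vary together across arrays, and 3 of the 5 fell on HGI 6.

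Isg20 was at 1.79 in HGI 3, with the next HGI mouse at 0.018. Oas2 was at 0.781 in HGI 6, with the next at 0.122. Irf7 was at 0.402 in HGI 6, with the next at 0.0233, and Irf9 was at 0.328 there, with the next at -0.0725. Ddx58 was at -0.928 in HGI 10, with the next at -0.419. For Isg20, Irf7 and Irf9 the deviation of the pool in Cy3 was larger than that of the mouse in Cy5. For Ddx58 the Cy5 value lay at -1.01 and the Cy3 value at 0.042 from their medians. The cause of these values was not tested.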

How the results depend on the processing

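In all 35 alternatives run, 0 members passed an adjusted p of 0.05 in limma. Of all genes tested, 1 passed with Cy5 intensities alone, 1 with array weights, and 0 to 3 when 1 array was left out (3 without LGI 7). The count of members at an unadjusted p of 0.05 was 3 over all arrays (all genes: 3.96% higher, 3.78% lower). It was 1 without HGI 9 and HGI 10 (all genes: 5.04% and 2.75%) and 1 in the authors' value table (3.29% and 3.71%). In the later 9 arrays it was also 1 (1.47% and 1.69%). When 1 array was left out it was 1 to 4. It was 1 without LGI 2 (3.1% and 2.91%), HGI 9 (3.81% and 3.19%) or HGI 10 (3.93% and 2.85%). The mean of the members, HGI minus LGI, ran from -0.052 (Cy5 alone) to 0.0321 (without HGI 9 and HGI 10), and was above 0 in 6 alternatives. Of 1075 member values over the alternatives, 970 kept the sign given in the report. Usp18 ran from -0.0698 to 0.687, Ddx58 from -0.498 to -0.131 and Bst2 from 0.1 to 0.226. Aquantile normalization leaves ratios as they are and cannot change these values. Member differences were also unchanged without the filter on dim probes, with probes above background on all 17 arrays only, and without saturated probes. Signs did not turn in those settings because the ratios and probes stayed the same, and the 970 values include them. Where the causes of such shifts are not stated, the cause was not tested.

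The deviations of samples with the same replicate number correlated at -0.38 to 0.26. These values were not set against those of samples with unlike numbers, so they cannot show whether the numbers pair the mice. With the replicate number as a block over the 14 arrays whose number occurs in both diets, 1 member was at an unadjusted p of 0.05. Of all genes, 3.85% were then higher and 2.6% lower at that p. Without the block 2 members were at that p (all genes: 4.08% and 2.61%). Slide as a random block was not run, since each slide holds 1 array. All arrays carry the same scan date. Dim signal limits the results: 13 of the 31 genes were under 4 times the local background, where negative controls read 2.28.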
